A study of Mus musculus with 18 samples.

Results

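The 9 genes Isl1, Mnx1, Lhx3, Phox2a, Chat, Ache, Slc18a3, Slc5a7 and Prph, which mark motor and cholinergic neurons, were taken by their symbols from the 23420 genes counted in each of 18 libraries of mouse embryonic stem (ES) cells and cultures made from them. All cells derived from the wild type E14 line, grown without feeder cells. ES cells received LG268 and GW3965 together, GW3965 alone or LG268 alone for 24 h, or were the control, each ligand at 1 µM. The other cultures passed through embryoid bodies (floating aggregates) with retinoic acid, at 5 µM in the growth protocol and 1 µM in the treatment protocol, and were then plated on laminin. They were sampled at day 8, at day 16 with and without GW3965, and at day 17 with and without GW3965. LG268 is an agonist of retinoid X receptors, and GW3965 is an agonist of their partners, the liver X receptors (LXR). Each of the 9 groups held 2 libraries. The labels gave neither the length of the GW3965 treatment at days 16 and 17 nor whether replicates were separate cultures, so p-values may measure technical spread alone. The labels named no vehicle beside the single groups, although the protocol listed dimethylsulfoxide, and they called every sample embryonic stem cells, the differentiated ones included.

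Motor neurons are specified in the ventral neural tube from progenitors that express Olig2, and the LIM homeodomain proteins Isl1 and Lhx3 together with Mnx1 set their identity. Phox2a acts in cranial motor and noradrenergic neurons. A cholinergic neuron takes up choline through the transporter encoded by Slc5a7, makes acetylcholine with the choline acetyltransferase encoded by Chat, and loads it into vesicles through the transporter encoded by Slc18a3. The cholinesterase encoded by Ache then clears it from the synapse. Prph encodes peripherin, an intermediate filament of neurons with axons outside the central nervous system. None of these genes is exclusive to motor neurons: Isl1 also marks sensory, cardiac and islet cells, and Lhx3 marks V2 interneurons and the pituitary.

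Chat and Slc18a3 form 1 cholinergic locus on chromosome 14, minus strand, in GRCm38. Chat spans chr14:32408203-32465989, and the single exon of Slc18a3, at chr14:32462438-32464850, lies inside that span. By GENCODE gene bounds the start of Slc18a3 is 1139 bases from that of Chat, and the genes share 0 exonic bases. Upstream sequence is shown for both, because both rose at day 8 and fell at day 16. It is shown also for Isl1, on chromosome 13, minus strand, and for Prph, on chromosome 15, plus strand, since these genes carried the clearest GW3965 results. The other genes lie apart, Isl1 at chr13:116298281-116309689, Mnx1 at chr5:29473034-29478470, Lhx3 at chr2:26200212-26208289 and Slc5a7 at chr17:54273590-54299034 on the minus strand. Phox2a at chr7:101818313-101822726, Ache at chr5:137287519-137294466 and Prph at chr15:99055174-99058978 are on the plus strand. All printed sequences are RefSeq sequences of GRCm38.p6, given 5′ to 3′ on the gene's strand without annotated exons. Capitals mark matches on either strand to an E-box (CAGCTG), to a GC box, which reads GGGCGG, and to a TATA box, which reads TATAAA, and these matches do not overlap.
Chat, chr14:32465990-32466159: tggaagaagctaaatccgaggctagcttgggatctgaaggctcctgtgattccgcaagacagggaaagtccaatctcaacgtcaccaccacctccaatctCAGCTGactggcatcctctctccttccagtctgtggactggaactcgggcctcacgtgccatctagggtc
Slc18a3, chr14:32464851-32465041: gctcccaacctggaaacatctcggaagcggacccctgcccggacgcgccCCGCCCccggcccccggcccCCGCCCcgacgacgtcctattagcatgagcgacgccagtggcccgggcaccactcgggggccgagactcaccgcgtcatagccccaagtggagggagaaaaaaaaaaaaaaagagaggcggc
Isl1, chr13:116309690-116309938: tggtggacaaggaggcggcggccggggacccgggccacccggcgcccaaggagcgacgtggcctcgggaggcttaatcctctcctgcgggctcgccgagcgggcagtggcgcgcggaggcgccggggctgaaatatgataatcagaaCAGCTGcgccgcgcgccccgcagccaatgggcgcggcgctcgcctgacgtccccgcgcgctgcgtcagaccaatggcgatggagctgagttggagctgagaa
Prph, chr15:99054924-99055173: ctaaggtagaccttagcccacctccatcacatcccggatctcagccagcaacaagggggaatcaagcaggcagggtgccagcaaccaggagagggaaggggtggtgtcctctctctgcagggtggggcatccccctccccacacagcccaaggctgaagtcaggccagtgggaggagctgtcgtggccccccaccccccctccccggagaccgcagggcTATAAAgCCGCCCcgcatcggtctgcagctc
Isl1 and Chat each held 1 CAGCTG, which began 103 and 150 bases upstream of the RefSeq start. For Chat that start differs from the GENCODE one, and the printed sequence covers bases 250 to 81 upstream of the RefSeq start. Of 32851 RefSeq windows of 250 bases, 13.0% held that motif. Slc18a3 held 2 GC boxes and Prph held 1, and 6 of the 9 genes had at least 1, against 32.7% of windows. Prph held TATAAA 31 bases upstream, a motif of 12.4% of windows. The nuclear receptor hexamer AGGTCA (14% of windows), its repeats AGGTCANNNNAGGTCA (0.0152%) and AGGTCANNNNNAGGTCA (0.00913%), and the homeodomain site TAATTA (4.84%) had 0 matches in the windows of all 9 genes. That says only that these letters were not in those windows.

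Libraries held 16.7 to 44.8 M gene counts, with a median of 23.5 M, so that 1 count equalled 0.0245 to 0.0583 counts-per-million units (CPM, after TMM scaling of library sizes). All 9 genes were among the 17166 that passed the filter on low counts. Isl1, Phox2a, Ache, Slc5a7 and Prph had 10 counts or more in both libraries of all 9 groups. Lhx3 and Chat reached that in no ES group, so they passed the filter through the groups where they were high. The 4 day 17 files listed 31.8 to 33.5% of reads as aligned more than once, against 0 in the 14 other files. Day 17 and this difference between files cannot be told apart, whereas GW3965 at day 17 is compared within it. Of 8 ES cell markers, Pou5f1 ranged from 3.28 to 21.9 CPM in differentiated libraries and from 688 to 748 CPM in ES libraries, and Nanog, Zfp42, Esrrb, Tdgf1 and Dppa5a were likewise apart. Sox2, also a gene of neural progenitors, kept 58.4 to 110 CPM in differentiated libraries, against 132 to 252 CPM in ES libraries. Klf4 reached higher levels in differentiated libraries (21.4 to 133 CPM) than in ES libraries (11.2 to 28.6 CPM). The LXR targets Abca1, Abcg1, Srebf1 and Mylip were all higher with GW3965 in ES cells, at day 16 and at day 17. Levels are CPM in single libraries or mean ± SD (n = 2), folds come from 1 edgeR quasi-likelihood fit of all libraries, and adjusted p-values are over all genes tested.

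**Figure D1:**
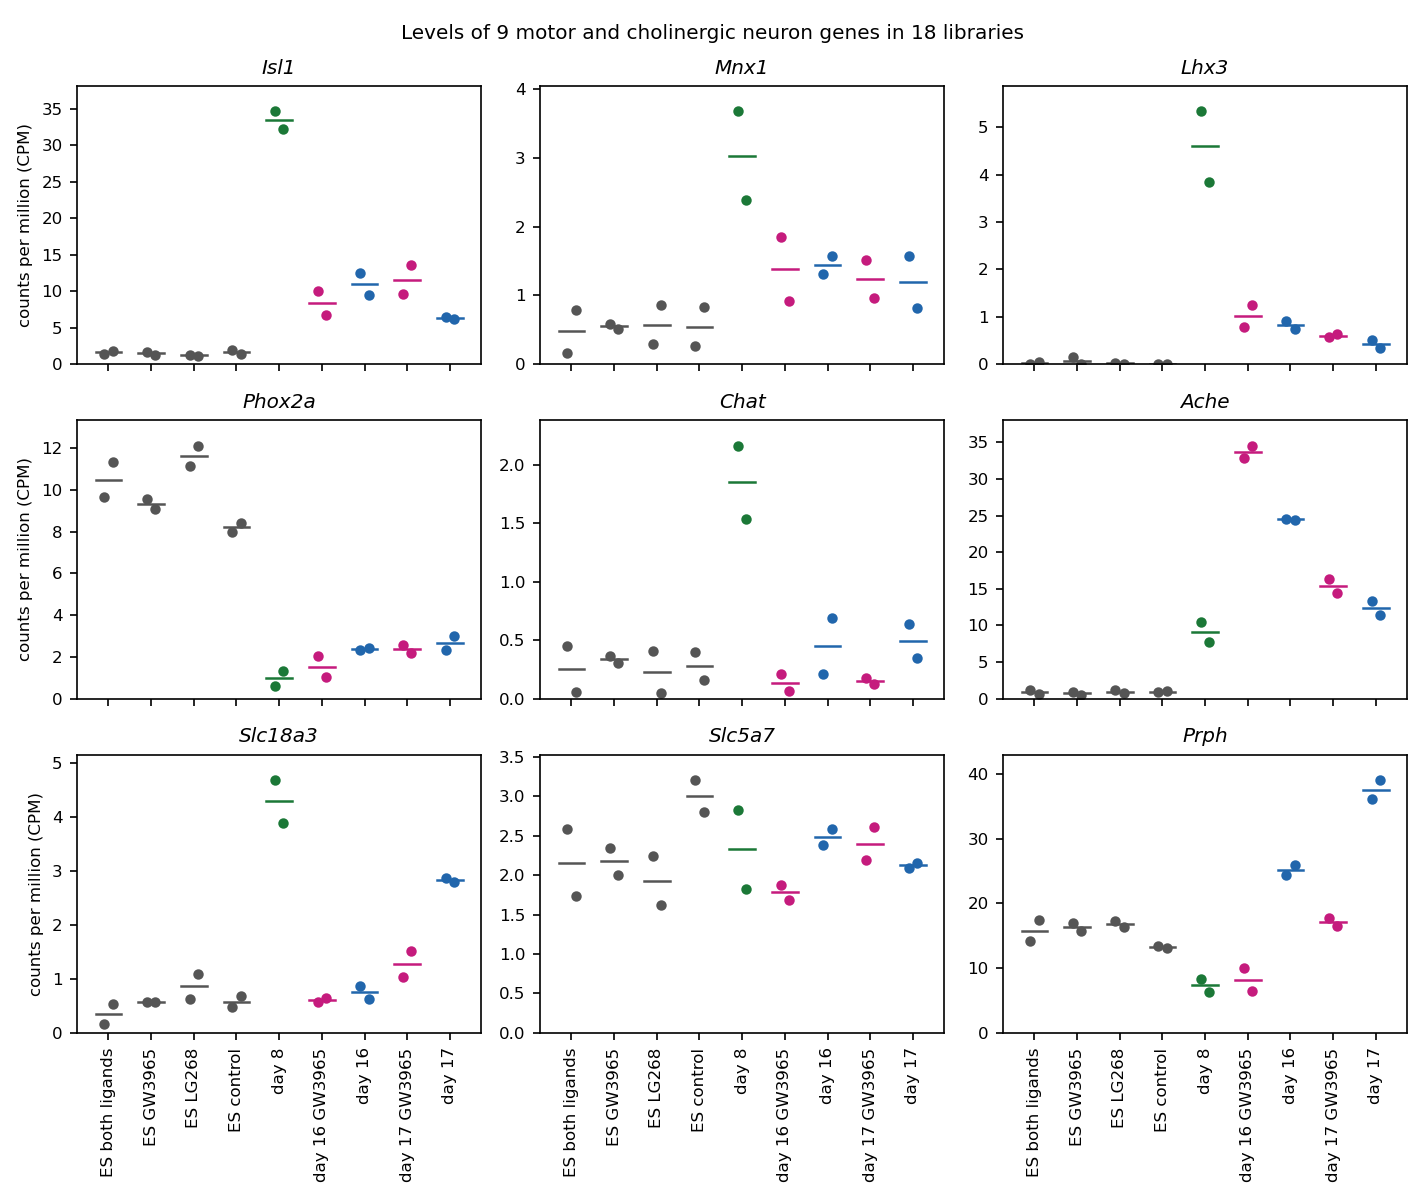
CPM of each gene on the y axis, linear and from 0, in the 9 groups on the x axis; points are libraries and bars are the means of 2. Isl1, Mnx1, Lhx3, Chat and Slc18a3 were highest at day 8, Ache at day 16 with GW3965, Prph at day 17, Slc5a7 in ES control and Phox2a in ES cells with LG268.

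At day 8 the transcription factors Isl1, Mnx1 and Lhx3 and the cholinergic genes Chat, Slc18a3 and Ache were higher than in ES control, while Phox2a and Prph were lower. This made 6 genes higher and 2 lower, where 39.7% of all genes tested were called higher and 39.1% lower (78.7% in all). The median log2 change of the 9 genes was 2.74, which is the value of Chat, against 0.0 over all genes. Lhx3 and Chat, counted among the 6, passed the low-count filter through groups where they were high. Their calls in this and later comparisons with such groups, and the median of the 9 genes above, are therefore no separate support. In bulk RNA, fewer cells of a type and less RNA per cell cannot be told apart.

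Isl1 had 34.7 and 32.3 CPM at day 8, against 1.89 and 1.46 CPM in ES control. Both day 8 libraries were far above both controls, and the fold was 20.0 (log2 4.32 ± 0.236 SE, adjusted p = 9.29e-13). Mnx1, which represses interneuron genes in motor neurons, had 3.68 and 2.38 CPM at day 8, against 0.26 and 0.83 CPM in ES control (5.38-fold higher, adjusted p = 0.000435). The control libraries differed widely from each other here, and still both lay under the lower day 8 library. Lhx3 had 138 and 118 counts at day 8, against 0 and 0 counts in ES control. With a floor of 3 counts per library, the day 8 mean of 4.60 CPM was at least 36.7-fold higher (adjusted p = 1.11e-08).

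The gene for the vesicular transporter, Slc18a3, had 4.68 and 3.89 CPM at day 8, against 0.48 and 0.67 CPM in ES control (7.31-fold higher, adjusted p = 5.84e-07). Chat had 2.17 and 1.54 CPM at day 8, against 0.40 and 0.16 CPM in ES control (6.67-fold higher, adjusted p = 0.0011). These are small numbers, 56 and 47 counts at day 8, against 9 and 4 counts in ES control. Only at day 8 did both libraries hold 10 Chat counts or more. Ache had 10.4 and 7.74 CPM at day 8, against 0.92 and 0.99 CPM in ES control (9.40-fold higher, adjusted p = 1.24e-10). Slc5a7, the choline transporter, had 2.82 and 1.83 CPM at day 8, against 3.21 and 2.81 CPM in ES control. The groups overlapped, and the log2 change of -0.38 had a 95% interval of -0.937 to 0.182 (adjusted p = 0.202).

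Phox2a went the other way from Isl1, with 0.62 and 1.31 CPM at day 8, against 8.00 and 8.42 CPM in ES control. It was 8.31-fold lower (adjusted p = 3.95e-09), and its ES libraries ranged from 8.00 to 12.1 CPM with a median of 9.61. Phox2a shares 95 exonic bases (4.67%) with Inppl1 on the opposite strand, whose level was 117.5 ± 1.32 CPM at day 8 and 209 ± 9.47 CPM in ES control. The strand setting of the counting is not given in the sources used here, so reads from those bases cannot be told apart. Prph had 8.39 and 6.27 CPM at day 8, against 13.5 and 13.1 CPM in ES control (1.82-fold lower, adjusted p = 9.61e-05). The ES libraries of Prph and Phox2a were thus all above those of day 8.

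Over the wider lists the same step looked as follows. Of 20 tested genes of motor neuron specification other than these 9, 15 were higher and 4 lower at day 8 (median log2 4.19). Neurog2, a proneural factor of motor neuron progenitors, had 32.6 ± 2.96 CPM at day 8 and 0.0835 ± 0.00628 CPM in ES control. Calca, which encodes the calcitonin gene-related peptide of mature motor and sensory neurons, fell to 1.18 ± 0.410 CPM at day 8, against 24.1 ± 0.599 CPM in ES control. The acetylcholine receptor genes were split, with 7 of 16 tested higher and 7 lower (3 lower under a stricter filter). Chrna3, a subunit of ganglionic nicotinic receptors, rose 77.2-fold to 21.3 ± 2.54 CPM at day 8, against 0.275 ± 0.109 CPM in ES control. Chrnb2, a subunit of nicotinic receptors in the brain, rose 14.6-fold to 63.9 ± 1.38 CPM at day 8, against 4.36 ± 0.820 CPM in ES control.

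Genes of every neuron rose in the same step: all 16 pan-neuronal genes were higher and 0 lower, with summed levels of 4832 to 4861 CPM at day 8 and 549 to 571 CPM in ES control. Among markers of other cells in which members are expressed, 6 of 7 autonomic and noradrenergic genes, 6 of 6 V2 interneuron genes and 4 of 5 islet genes were higher and 0 lower. Of 9 sensory and neural crest genes 4 were higher and 2 lower, and of 7 heart field genes 5 were higher and 1 lower. Of 3 tested pituitary genes 1 was higher and 1 lower (list sums of 26.7 to 28.9 CPM at day 8 and 48.1 to 50.2 CPM in ES control), and of 5 muscle genes 0 were higher and 3 lower. The summed autonomic list was 87.9 to 97.6 CPM at day 8 and 2.29 to 2.53 CPM in ES control, where Dbh, the gene of the noradrenaline-making enzyme, was at 0. The part of these cells in the members' levels was not tested. Ngfr, a neurotrophin receptor of basal forebrain cholinergic neurons and of neural crest, rose 21.4-fold to 101 ± 7.77 CPM at day 8, against 4.74 ± 1.06 CPM in ES control.

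**Figure D2:**
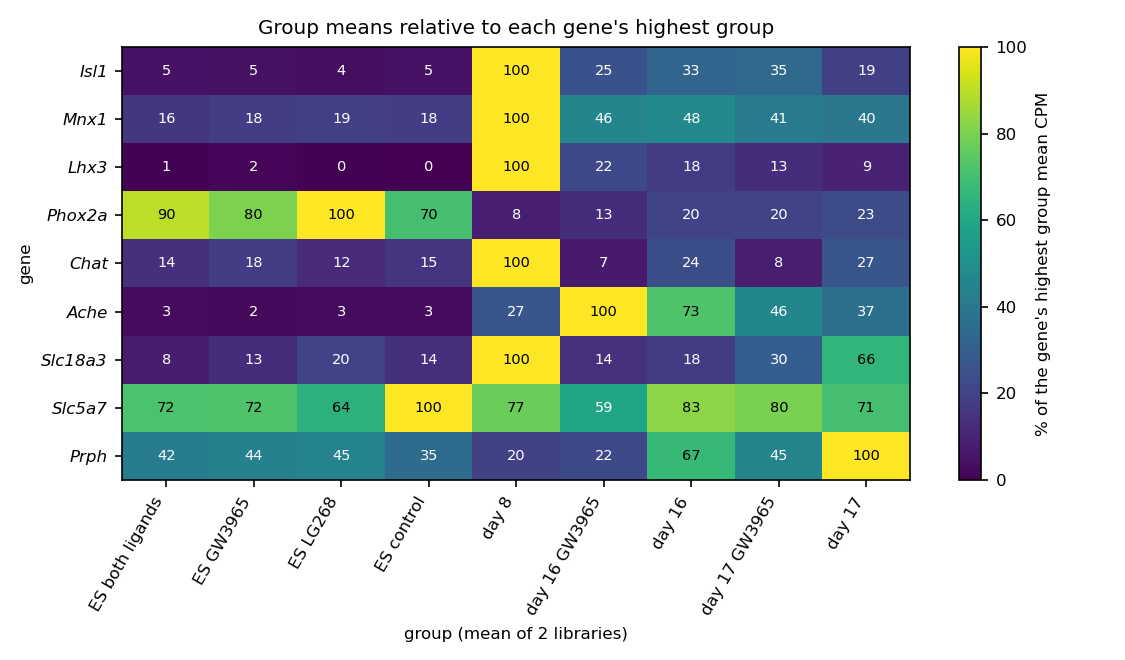
Group means of 2 libraries on the x axis as a percent of each gene's highest group mean, with genes on the y axis and the colour scale running from 0 to 100%. Isl1, Mnx1, Lhx3, Chat and Slc18a3 reach 100% at day 8, Phox2a stands at 8.27% there, and Slc5a7 keeps within 59.2 and 100%.

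Between day 8 and day 16 most of the day 8 genes fell again, whereas Ache, Prph and Phox2a rose. Members called higher numbered 3 and lower 4, where 29.4% of all genes were called higher and 32.2% lower (61.6% in all). The day 8 libraries enter this comparison and the preceding one, so they are not independent. Isl1 had 12.5 and 9.47 CPM at day 16, against 34.7 and 32.3 CPM at day 8 (3.06-fold lower, adjusted p = 3.13e-07). Lhx3 had 0.91 and 0.74 CPM at day 16, against 5.34 and 3.85 CPM at day 8 (5.59-fold lower, adjusted p = 3.86e-05). Slc18a3 had 0.86 and 0.63 CPM at day 16, against 4.68 and 3.89 CPM at day 8 (5.78-fold lower, adjusted p = 3.1e-06). In each of these genes both day 16 libraries lay under both of day 8. Mnx1 had 1.32 and 1.57 CPM at day 16, against 3.68 and 2.38 CPM at day 8, and did not pass (log2 -1.05, adjusted p = 0.0579). It passed in 4 alternatives, with adjusted p from 0.00676 to 0.0466.

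Chat had 0.21 and 0.69 CPM at day 16, against 2.17 and 1.54 CPM at day 8 (3.86-fold lower, adjusted p = 0.00821). The call was lost without day 16 replicate 1 (adjusted p = 0.0885) and without day 8 replicate 1 (adjusted p = 0.0588). The higher Chat value came from day 16 replicate 2, with 25 counts, against 5 in replicate 1. That library also held more RNA of embryonic muscle genes, with Myh3 at 23.2 CPM against 0.658 CPM in replicate 1, and Myog at 4.82 CPM against 0. The 7 skeletal muscle markers summed to 39.9 CPM in replicate 2 and 6.05 CPM in replicate 1. The part of that library's muscle RNA in the Chat value was not tested.

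Ache rose at this step, with 24.6 and 24.4 CPM at day 16, against 10.4 and 7.74 CPM at day 8 (2.71-fold higher, adjusted p = 2.22e-07). Prph had 24.4 and 26.0 CPM at day 16, against 8.39 and 6.27 CPM at day 8 (3.45-fold higher, adjusted p = 1.04e-08). Phox2a had 2.30 and 2.42 CPM at day 16, against 0.62 and 1.31 CPM at day 8 (2.40-fold higher, adjusted p = 0.00157). None of these groups overlapped. Slc5a7 had 2.39 and 2.59 CPM at day 16, within the day 8 range of 1.83 to 2.82 CPM (log2 0.11, 95% interval -0.447 to 0.668, adjusted p = 0.74).

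The list of motor neuron specification fell more often than it rose, with 10 of 20 genes lower and 5 higher (median log2 -0.345, against -0.0362 over all genes). Neurog2 fell to 3.56 ± 1.02 CPM at day 16, against 32.6 ± 2.96 CPM at day 8. Olig2, a factor of motor neuron and oligodendrocyte progenitors, rose 14.3-fold to 23.3 ± 0.494 CPM at day 16, against 1.64 ± 0.421 CPM at day 8. Among 10 LIM homeodomain genes related to Isl1 and Lhx3, 5 fell and 1 rose, with 3 lower without day 16 replicate 2 or without day 8 replicate 1. Lhx5 fell 5.78-fold and Lhx1 8.00-fold, to 3.69 ± 0.195 and 16.3 ± 0.147 CPM at day 16, against 21.3 ± 1.87 and 130 ± 1.40 CPM at day 8.

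Among receptors, 5 of 16 rose and 6 fell, with 3 higher without day 16 replicate 2. Chrna3 fell to 1.72 ± 0.0153 CPM at day 16, against 21.3 ± 2.54 CPM at day 8, and Chrm2, a muscarinic receptor gene, rose 5.96-fold to 10.3 ± 2.86 CPM at day 16, against 1.69 ± 0.424 CPM at day 8. Of 11 tested accessory genes of acetylcholine synthesis, anchoring and clearance 4 rose and 3 fell (median log2 -0.207). Bche, which encodes the second cholinesterase, rose to 40.2 ± 3.74 CPM at day 16, against 18.8 ± 1.30 CPM at day 8 (2.14-fold, adjusted p = 6.93e-07). Lynx1, whose product binds nicotinic receptors, rose 23.7-fold to 9.81 ± 1.61 CPM at day 16, against 0.403 ± 0.0772 CPM at day 8. Ric3, a chaperone of nicotinic receptors, fell 1.53-fold to 20.7 ± 0.358 CPM at day 16, against 31.6 ± 0.412 CPM at day 8. Over this step 9 of 16 pan-neuronal genes fell and 2 rose, and the summed astrocyte markers were 939 to 982 CPM at day 16 and 150 to 151 CPM at day 8.

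At day 16, 5 of the 9 genes were higher and 1 lower than in ES control, where 41.5% of all genes were called higher and 39.6% lower (81.1% in all). Ache had 24.6 and 24.4 CPM at day 16, against 0.92 and 0.99 CPM in ES control (25.4-fold higher, adjusted p = 1.07e-13). Isl1 was 6.53-fold higher, Prph 1.89-fold higher and Phox2a 3.46-fold lower, all without overlap between the groups. Lhx3 was at least 6.58-fold higher against the floor of 3 counts per library. Mnx1 passed narrowly (2.60-fold higher, adjusted p = 0.0336) and was lost without ES control replicate 1 (adjusted p = 0.265), without day 16 replicate 1 (0.0527) and without day 16 replicate 2 (0.132). Chat (log2 0.79, adjusted p = 0.35) and Slc18a3 (log2 0.34, adjusted p = 0.477) overlapped the control. Slc5a7, at log2 -0.27 (adjusted p = 0.356), did not overlap it.

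At day 17, 1 day later, 2 of the 9 genes were higher and 2 lower than at day 16, where 26.8% of all genes were called higher and 29.5% lower (56.2% in all). Slc18a3 had 2.86 and 2.80 CPM at day 17, against 0.86 and 0.63 CPM at day 16 (3.83-fold higher, adjusted p = 0.000121). Chat, at the same locus, had 0.64 and 0.35 CPM at day 17, against 0.21 and 0.69 CPM at day 16, with overlapping groups (log2 0.10, 95% interval -1.4 to 1.6, adjusted p = 0.915). Prph had 36.1 and 39.1 CPM at day 17, against 24.4 and 26.0 CPM at day 16 (1.49-fold higher, adjusted p = 0.002). Ache had 13.4 and 11.4 CPM at day 17, against 24.6 and 24.4 CPM at day 16 (1.97-fold lower, adjusted p = 2.92e-05). Isl1 had 6.45 and 6.18 CPM at day 17, against 12.5 and 9.47 CPM at day 16 (1.73-fold lower, adjusted p = 0.00286), a call lost without day 16 replicate 1 (adjusted p = 0.0532). All 4 changes span the files that did and did not list reads aligned more than once. In the same step 9 pan-neuronal genes fell and 0 rose, and the astrocyte markers summed to 2819 to 3170 CPM at day 17.

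The balance of the 2 transcripts of the cholinergic locus was followed by the share of Slc18a3 in the counts of both. It was 68.4% (61.0 to 75.1) and 71.7% (64.2 to 78.4) at day 8, with exact 95% binomial intervals that cover counting error alone. At day 17 it was 81.7% (71.6 to 89.4) and 88.9% (77.4 to 95.8). At day 16 the libraries parted, with 80.8% (60.6 to 93.4) in replicate 1 and 47.9% (33.3 to 62.8) in replicate 2, the one with more muscle RNA. With GW3965 at day 17 it was 85.2% (66.3 to 95.8) and 92.3% (79.1 to 98.4), from 4 and 3 Chat counts. Slc18a3 therefore gave most of the counts in 9 of the 10 differentiated libraries. This was not particular to them, since the share was 55.0% (31.5 to 76.9) and 81.0% (58.1 to 94.6) in ES control. From few counts, ES libraries ran from 27.3% (6.02 to 61.0, both ligands, replicate 1) to 95.8% (78.9 to 99.9, LG268, replicate 2).

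With GW3965 at day 16 Prph fell and Ache rose, and the other 7 genes did not pass, where 13% of all genes were called higher and 18.7% lower (31.7% in all). Prph had 9.95 and 6.49 CPM with GW3965 at day 16, against 24.4 and 26.0 CPM at day 16 without it. Both treated libraries lay far under both untreated ones, near the day 8 level, and the fold was 3.06 lower (log2 -1.62 ± 0.156 SE, adjusted p = 3.28e-07). The log2 change ran from -1.95 to -1.34 over 13 alternatives. Ache had 32.8 and 34.6 CPM with GW3965 at day 16, against 24.6 and 24.4 CPM without it (1.38-fold higher, adjusted p = 0.0226). The call, though not the size, was lost without day 16 replicate 1 (log2 0.47, adjusted p = 0.0901), without day 16 replicate 2 (0.46, adjusted p = 0.111) and without GW3965 replicate 2 (0.43, adjusted p = 0.103), against log2 0.46 as reported.

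The transcription factors did not pass at this time. Isl1 had 10.1 and 6.70 CPM with GW3965 at day 16, against 12.5 and 9.47 CPM without it (log2 -0.38, 95% interval -0.783 to 0.0237, adjusted p = 0.147). Phox2a had 2.06 and 1.01 CPM with GW3965, against 2.30 and 2.42 CPM without it (log2 -0.62, adjusted p = 0.103). Both passed as lower when GW3965 replicate 1 was left out (adjusted p = 0.0193 and 0.00749). Chat had 7 and 2 counts with GW3965, against 5 and 25 counts without it, and the groups overlapped. The 25 counts came from replicate 2. With so few counts the 95% interval was wide, at log2 -3.47 to -0.0503, and Chat did not pass (adjusted p = 0.111). Mnx1, Lhx3, Slc18a3 and Slc5a7 had adjusted p from 0.185 to 0.937.

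**Figure D3:**
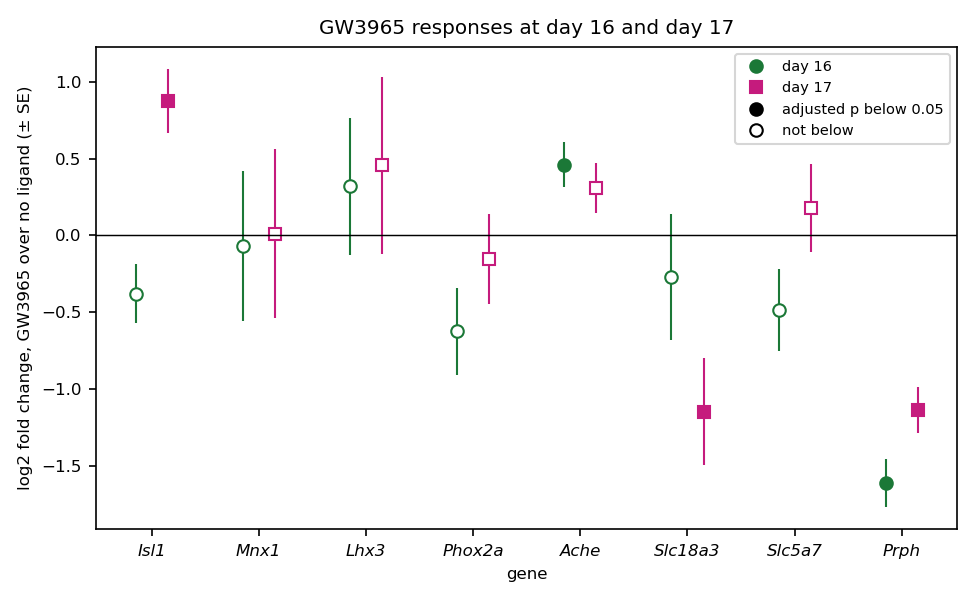
Log2 fold change of GW3965 over no ligand on the y axis, with its SE, for 8 genes on the x axis at day 16 (circles) and day 17 (squares); filled marks passed an adjusted p of 0.05, and Chat is left out for its low counts. Prph lies at -1.62 and -1.14, and Isl1 at -0.38 and 0.88.

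Other lists moved as follows with GW3965 at day 16. Of 16 pan-neuronal genes 13 rose and 0 fell. The synaptic vesicle gene Syp rose 2.10-fold to 198 ± 19.9 CPM with GW3965, against 94.5 ± 11.1 CPM without it, and Stmn2, a tubulin regulator of growing axons, rose 1.77-fold to 589 ± 1.53 CPM, against 333 ± 9.59 CPM. Ina, a filament gene related to Prph, rose 1.61-fold to 151 ± 4.50 CPM with GW3965, against 93.7 ± 4.18 CPM without it. Of 8 other intermediate filament genes 1 rose and 4 fell, where Nefl, Nefm, Nefh and Ina are in this list and in the pan-neuronal one. Of the 20 genes of motor neuron specification 0 rose and 6 fell, a count of 2 without day 16 replicate 1 or without GW3965 replicate 2. Among those that fell was Calca, 2.19-fold lower at 3.15 ± 0.263 CPM with GW3965, against 6.89 ± 0.542 CPM without it. Chrnb2 rose 1.84-fold to 43.1 ± 5.31 CPM with GW3965, against 23.4 ± 1.61 CPM without it. Ric3 rose 1.65-fold to 34.1 ± 1.83 CPM, against 20.7 ± 0.358 CPM. Gad1, the gene of a GABA-synthesizing enzyme, rose 2.07-fold to 83.8 ± 2.57 CPM, against 40.6 ± 0.902 CPM.

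Some lists of markers of other cells mostly fell beside Prph, and others did not. Sensory and neural crest genes numbered 1 higher and 2 lower of 9, and autonomic and noradrenergic genes 1 higher and 2 lower of 7. V2 interneuron genes numbered 2 higher and 0 lower of 6, and heart field genes 1 higher and 1 lower of 7. Pituitary genes numbered 0 higher and 2 lower of 3, and 0 of 5 islet genes were called. Of 6 astrocyte genes 4 fell and 0 rose, and they summed to 456 to 624 CPM with GW3965 at day 16 and 939 to 982 CPM without it, with none at 0. Gfap, the astrocyte filament, fell to 193 ± 81.3 CPM with GW3965, against 575 ± 19.4 CPM without it (2.98-fold, adjusted p = 1.85e-06). Of 8 ES cell markers 6 fell and 1 rose (median log2 -1.36), summing to 114 to 126 CPM with GW3965 and 162 to 183 CPM without it, and Prph itself had 13.1 to 17.4 CPM in ES libraries. Of 5 tested muscle markers 3 were called lower, summing to 5.45 to 6.24 CPM with GW3965. Without it they summed to 6.05 CPM in replicate 1, within that range, and to 39.9 CPM in replicate 2. The muscle difference thus rests on 1 library, whereas Prph was high in both. The part of these cells in the Prph result was not tested.

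**Figure D4:**
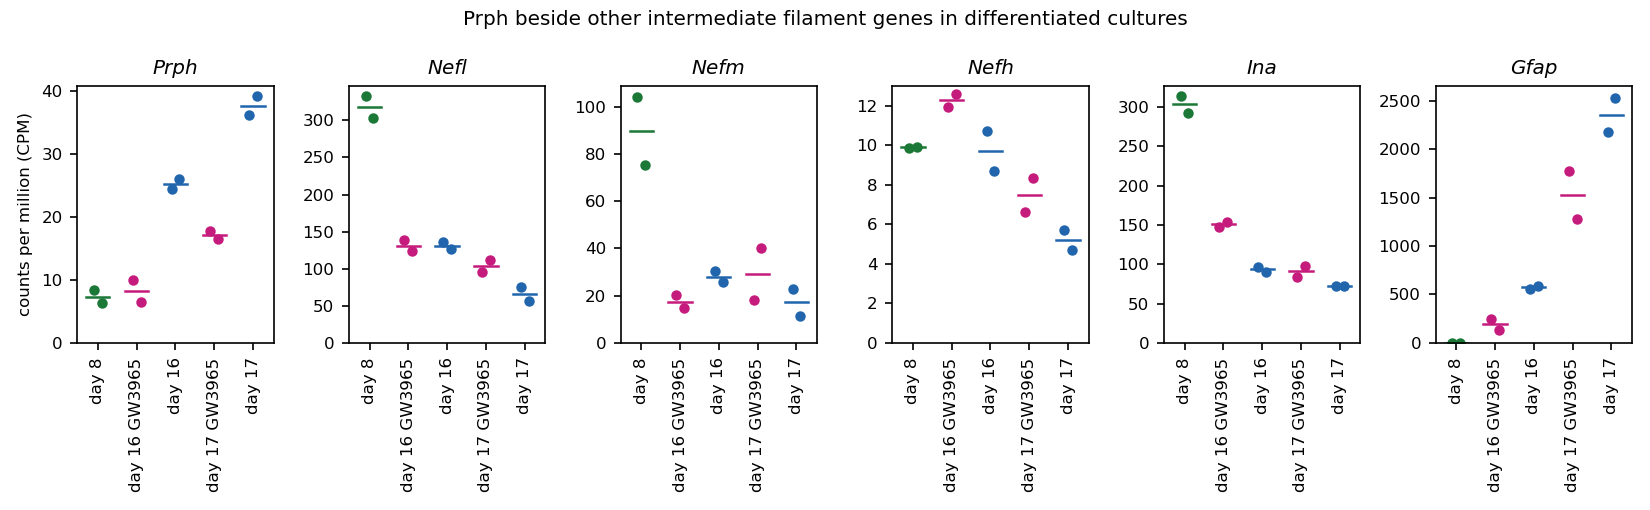
CPM on the y axis, linear and from 0, of Prph and 5 other intermediate filament genes in differentiated cultures on the x axis; points are libraries and bars means of 2. Prph and Gfap have lower means with GW3965 at both days, Ina and Nefh higher ones, and Nefl and Nefm are high at day 8, where Prph is low.

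At day 17 Prph fell again with GW3965, Slc18a3 fell and Isl1 rose, where 17.2% of all genes were called higher and 18% lower (35.2% in all). Prph had 17.7 and 16.5 CPM with GW3965 at day 17, against 36.1 and 39.1 CPM without it (2.20-fold lower, adjusted p = 8.61e-06). Its log2 change ran from -1.20 to -1.08 over 12 alternatives. Slc18a3 had 1.03 and 1.51 CPM with GW3965 at day 17, against 2.86 and 2.80 CPM without it (2.22-fold lower, adjusted p = 0.0146). The call was lost without day 17 replicate 1 (adjusted p = 0.0642) and without GW3965 replicate 1 (0.126). Chat had 4 and 3 counts with GW3965, against 15 and 6 counts without it (log2 -1.72, 95% interval -3.61 to 0.181, adjusted p = 0.154).

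Isl1 had 9.60 and 13.6 CPM with GW3965 at day 17, against 6.45 and 6.18 CPM without it (1.84-fold higher, adjusted p = 0.00281). It was lost without GW3965 replicate 2 (log2 0.60, adjusted p = 0.07). In that library Nefm was also high, at 40.2 CPM against 18.1 CPM in replicate 1, and muscle markers summed to 12.8 CPM against 4.56 CPM. The part of this library's make-up in the Isl1 value was not tested. Ache had 16.4 and 14.5 CPM with GW3965 at day 17, against 13.4 and 11.4 CPM without it, which did not overlap and did not pass (log2 0.31, 95% interval -0.0363 to 0.655, adjusted p = 0.158). Mnx1, Lhx3, Phox2a and Slc5a7 had adjusted p from 0.577 to 0.995.

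Around them at day 17, 9 pan-neuronal genes rose with GW3965 and 3 fell, with 2 higher without GW3965 replicate 2 and 5 higher without day 17 replicate 2. Of the 8 other intermediate filament genes 7 rose and 1 fell, with 4 higher without GW3965 replicate 2. Nefl, Nefm, Nefh and Ina again count in both lists. Tubb3, a neuronal tubulin, rose 1.90-fold to 313 ± 36.7 CPM with GW3965, against 164 ± 18.3 CPM without it, and Nefl rose 1.56-fold to 104 ± 10.9 CPM, against 66.2 ± 13.2 CPM. Of the genes of motor neuron specification 4 rose and 3 fell, with 2 higher without GW3965 replicate 2 or without day 17 replicate 2. Tbx20, a factor of cranial motor neurons and heart, rose 2.22-fold to 8.56 ± 0.617 CPM with GW3965, against 3.96 ± 1.49 CPM without it. Acly, which makes the acetyl-CoA used for acetylcholine and for lipids, rose 1.36-fold to 350.0 ± 22.9 CPM with GW3965, against 258 ± 10.2 CPM without it. Bche rose 1.46-fold to 72.3 ± 3.19 CPM, against 49.5 ± 1.54 CPM. Of the astrocyte markers 4 fell and 1 rose, summing to 1760 to 2282 CPM with GW3965 at day 17 and 2819 to 3170 CPM without it.

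Whether the GW3965 responses differed between the days was tested as a difference of differences. Isl1 passed, with a response at day 17 that exceeded that at day 16 by log2 1.26 ± 0.285 SE (95% interval 0.661 to 1.85, adjusted p = 0.00169). The other 8 genes did not, where 20% of all genes were called higher and 17% lower in this test (37% in all). For Prph the difference was log2 0.48 (95% interval 0.0261 to 0.929, adjusted p = 0.0915), and for Slc18a3 it was log2 -0.88 (-2.01 to 0.251, adjusted p = 0.219). The days also differ in the kind of file, and the file names read as different lengths of treatment, so day and treatment length cannot be told apart here. Other lists differed between the days in the same test. Of 20 genes of motor neuron specification 7 were higher and 1 lower, Tbx20 among the higher (adjusted p = 0.0001). That count was 3 higher without day 16 replicate 1 or without GW3965 replicate 2 of day 17, and 4 without day 17 replicate 2. Of 16 pan-neuronal genes 3 were higher and 12 lower. The ES cell markers were 6 of 8 higher and 1 lower (median log2 1.92). Of the lists for other sites of LIM genes, 3 of 3 pituitary and 3 of 7 heart field genes were higher and 0 lower, and 0 of 5 islet genes were called. The part of such cells in the Isl1 difference was not tested.

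In ES cells none of the 9 genes passed with any ligand. The edgeR test called 0 with both ligands, where 4.83% of all genes were called higher and 6.47% lower (11.3% in all). It called 0 with GW3965, where 0.309% were higher and 0.0117% lower (0.32% in all), and 0 with LG268, where 0.518% were higher and 0.332% lower (0.851% in all). The 3 comparisons share the ES control libraries. At an unadjusted p under 0.05 there were 0 members with both ligands, against 24.7% of all genes, 1 with GW3965, against 5.65%, and 3 with LG268, against 9.33%. The 1 with GW3965 was Lhx3, which had 6 and 0 counts there, against 0 and 0 counts in ES control, and so rests on 1 library. Phox2a had 11.2 and 12.1 CPM with LG268, against 8.00 and 8.42 CPM in ES control (log2 0.50, 95% interval 0.0457 to 0.957, adjusted p = 0.459). Prph had 17.2 and 16.4 CPM with LG268, against 13.5 and 13.1 CPM in ES control (log2 0.34, adjusted p = 0.512). Neither group overlapped its control, and both genes passed when only these 4 libraries were fitted (adjusted p = 0.0134 and 0.0459). That smaller fit called 843 genes in all, against 146 in the fit of all libraries. Slc5a7 was lowest with LG268, at 1.62 and 2.24 CPM, against 3.21 and 2.81 CPM in ES control (log2 -0.62, 95% interval -1.2 to -0.0434, adjusted p = 0.475). Lhx1, another LIM gene, had 6.90 and 5.25 CPM with LG268, against 20.4 and 20.4 CPM in ES control (3.31-fold lower, adjusted p = 0.000117). Isl1 itself had 1.28 and 1.14 CPM with LG268, against 1.89 and 1.46 CPM in ES control (log2 -0.45, 95% interval -1.14 to 0.241).

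Per length of exon, as RPKM (CPM divided by exonic kilobases), Prph and Phox2a led the 9 genes in every ES group, with 6.66 and 4.03 RPKM in ES control. At day 8 Isl1 led with 8.45 RPKM, followed by Prph with 3.67 and Ache with 1.96 RPKM. The ranges of Isl1 and Prph did not overlap, while those of Ache, Slc18a3, Lhx3 and Mnx1 formed a chain of overlapping neighbours. At day 16 the order was Prph (12.6), Ache (5.29), Isl1 (2.78) and Phox2a (1.16 RPKM), with no overlap between neighbours. With GW3965 at day 16 Ache led instead, with 7.29 RPKM, against 4.11 RPKM of Prph. Chat was last in all 5 differentiated groups, from 0.0290 to 0.394 RPKM, and Lhx3 was last in all 4 ES groups.

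The genes whose group means were most like those of a member were sought by Pearson's r of log2(CPM + 1) over the 9 groups among 13848 genes. For Isl1 these were Lhx5 (r = 0.993), BC024139 and Btbd17, for Ache Kcnk9 (r = 0.998), Pld5 and Thra, and for Phox2a Adrb3 (r = 0.995), Bhlha15 and Nt5e. Prph had the weakest likeness, led by Lif (r = 0.927), Fermt2 and Smim3. Among the members themselves r was -0.956 for Isl1 and Phox2a, 0.795 for Isl1 and Ache, and 0.00878 for Ache and Prph. These describe 9 points that share libraries and the contrast of ES cells with differentiated cultures.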

How the data were processed

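Reads were counted per gene symbol in 18 libraries. The raw counts were deposited by the authors, 1 file a library. Per the submitters' processing notes the build was mm10, and the tools named are HTSeq 0.6.0, TopHat2 2.0.7, Cuffdiff 2.0.2 and Cufflinks 2.0.2, with no order. The annotation and strand setting are not given in the sources used here. Summary lines that name no gene (62.8 to 65.9% with no gene in 14 files, 42.1 to 43.4% in the day 17 files) stayed out of library sizes.

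Counts were scaled by TMM (factors 0.912 to 1.11), filtered with filterByExpr, and tested in R 4.3.3 with edgeR 4.0.16. The quasi-likelihood test, two-sided, came from 1 fit with 9 groups (9 residual degrees of freedom, biological variation 6.47%), adjusted by Benjamini-Hochberg within each of 10 comparisons at 0.05. The code was tested on simulated data. Alternatives were DESeq2 1.42.0 (its size factors, and its Wald test), dropping the filter, requiring 1 CPM in at least 4 libraries, upper quartile scaling, limma 3.58.1 voom, a fit of only the groups compared, a fit without day 17 libraries, a replicate block and leaving out each library. Same-numbered libraries did not deviate together (36 pairs of groups, correlation -0.135 to 0.0991), so nothing was paired. Binomial intervals and floors cover counting error only.

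All 9 members are named. Of each of 9 lists, up to 3 called genes per direction and comparison with the largest change at 1 CPM or more could be named, and the text gives some of them. Levels of Myh3, Myog, Nefh and of list genes in single libraries were named after their values were seen. Members and lists were chosen with earlier results of these data known. Positions are from GENCODE M21 (GRCm38), and the RefSeq table held an upstream window for all 9 members. Results of 1 gene are not reported here.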

Additional observations from a re-analysis of the deposited data

Results flagged for a closer look

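The GW3965 response of Isl1 differed between the days by a test of the difference itself. With GW3965, Isl1 averaged 11.6 ± 2.82 CPM at day 17, against 6.31 ± 0.187 CPM without it, and 8.39 ± 2.38 CPM at day 16, against 10.99 ± 2.15 CPM without it (SD, n = 2 each). The log2 response at day 17 minus that at day 16 was 1.26 (adjusted p = 0.00169 in edgeR), and over the alternatives it ran from 0.97 to 1.57 and passed in each. The responses had opposite signs, and the one at day 16 did not pass by itself. In this test 37% of all genes were called. Day cannot be told apart here from treatment length or from the listing of reads aligned more than once. Without GW3965 replicate 2 the day 17 response was log2 0.60, against 0.88 with all libraries.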

How the results depend on the processing

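Of 997 alternative values of single members, 939 kept direction and call, 12 lost a call, 11 gained one and 35 changed sign, all of the last in genes without a call. The cause was not tested. The replicate block changed no call of a member, and its 1 change of sign was Mnx1 with GW3965 in ES cells (log2 -0.01276). That value, 0.004403 in the fit as reported, was also -0.009865 with DESeq2 size factors, -0.001671 with upper quartile scaling, -0.003111 without the day 17 libraries and -0.000993 with only the groups compared. Ache with LG268 was -0.02375 in limma-voom, and Isl1 with both ligands was 0.008205 with DESeq2 size factors, 0.005744 with upper quartile scaling and 0.005604 in the DESeq2 Wald test.

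Members called lower from day 8 to day 16 numbered 2 under the stricter filter, which left Lhx3 and Chat untested. LG268 called 2 members higher in the fit of only the groups compared, which called 843 genes in all, against 146 as reported. The difference between GW3965 responses called 2 higher with no filter and with limma-voom (Prph added, adjusted p = 0.0384 and 0.0415). Upper quartile scaling moved the median of all genes by 0.107 between day 8 and day 16.

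Leaving out each library in turn gave log2 changes from -0.2045 to 0.4246 for Slc5a7 between day 8 and day 16, and, between day 16 and day 17, from -0.8179 to 0.1183 for Mnx1 and -0.01498 to 0.3371 for Phox2a. With GW3965 at day 16 they ran from -0.6546 to 0.345 for Mnx1 and -0.05106 to 0.623 for Lhx3, and at day 17 from -0.3497 to 0.5959 for Mnx1 and -0.3337 to 0.008998 for Phox2a. For the difference of the responses they ran from -0.34 to 0.6636 for Mnx1 and -0.1694 to 0.5048 for Lhx3. In ES cells they ran with GW3965 from -0.3237 to 0.1169 for Isl1, -0.5668 to 1.07 for Mnx1 and -0.252 to 0.2195 for Slc18a3, with LG268 from -0.421 to 0.2926 for Ache, and with both ligands from -0.1936 to 0.1752 for Isl1 and -0.4876 to 0.2989 for Ache. Members called lower at day 17 against day 16 numbered 1 to 2, those called with GW3965 at day 16 numbered 0 to 1 higher and 1 to 3 lower, those at day 17 numbered 0 to 1 higher and 1 to 2 lower, and those called higher in the difference numbered 1 to 2.

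Over all genes, calls ranged from 3589 (without GW3965 replicate 2) to 6099 (limma-voom) with GW3965 at day 16, against 5446 as reported. In ES cells they ranged from 28 (without ES control replicate 1) to 369 (only the groups compared) around 55 with GW3965, from 42 to 843 around 146 with LG268 in the same settings, and from 427 (only the groups compared) to 2844 around 1939 with both ligands. A pseudocount of 0.25 kept 1 of the 3 most alike genes for Isl1 and Phox2a and 2 for Ache and Prph. Mnx1, Lhx3, Chat and Slc18a3 had few counts, which limits what could be detected for them.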
